A study of Mus musculus with 15 samples.

Results

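The cytosolic ribosome of the mouse is built from 4 ribosomal RNAs and many proteins, each with its own nuclear gene, and these protein genes are the subject here. They were taken from the gene table by symbol: Rpl or Rps followed by a number and at most 1 letter out of a, x and y, together with Rplp0, Rplp1, Rplp2 and Rpsa. A mean of at least 1 TPM (transcripts per 1000000, a level per unit of transcript length) over the 15 libraries was also required. The table holds 36144 symbols, of which 76 matched, all 76 reached that mean, and all 76 were among the 15425 genes tested. They comprise 46 genes of the large (60S) subunit and 30 of the small (40S) subunit. Ribosomal proteins named by other schemes, such as Fau and Rps3a1, lie outside the rule and are described after the members.

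As background, ribosomal proteins are imported into the nucleolus, assembled there on ribosomal RNA and exported as subunits. Their mRNAs are abundant and short, and most carry a 5′ terminal oligopyrimidine (TOP) tract, a run of C and T at the very first base, through which mTORC1 and Larp1 adjust their translation together. A few of the proteins act outside the ribosome: Rpl5, Rpl11 and Rpl23 can bind Mdm2, the ubiquitin ligase that keeps the tumour suppressor p53 low. Motor neurons are large cells with a dense rough endoplasmic reticulum, the Nissl substance. Spinal muscular atrophy (SMA) is the loss of these neurons through lack of the SMN protein, which assembles the ribonucleoproteins of splicing.

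The neurons were labelled with cholera toxin subunit B, a tracer taken up at axon ends, and cut by laser from lumbar segments L1 to L3 of FVB mice at postnatal day 6. Every animal, controls included, carried the human SMN2 and SMNΔ7 transgenes. WT denotes Smn+/+;SMN2;SMNΔ7 littermates given vehicle, and SMA denotes Smn-/-;SMN2;SMNΔ7 mice given vehicle. The other groups are SMA mice injected daily into the peritoneum from postnatal day 0. For SMA+MW150 this was 5 mg/kg of MW150, which inhibits the stress kinase p38α. For SMA+Pifithrin-alpha it was 2.2 mg/kg of an inhibitor of p53. For SMA+SMN-C3 it was 3 mg/kg of a compound that shifts SMN2 splicing toward full-length SMN. Each group had 3 replicates, so there were 15 libraries, and equal proportions of males and females were used. How many animals went into a library is not given in the sources used here, so p-values measure the spread between libraries. Libraries are named by group and replicate.

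The starts of these genes are shown first, because the TOP tract is the sequence feature they are known for and the rule did not use it. RefSeq promoter records (GRCm38.p6) matched 56 of the 76 genes by symbol, with 66 annotated start sites. A tract was counted where a C stood at the first transcribed base and was followed by at least 4 bases that were each C or T, read on the gene's own strand only. It was present at 13 of the 66 starts (19.7%), against 823 of 32851 starts of all genes (2.51%). Allowing the tract to begin up to 5 bases to either side raised the shares to 43.9% and 18.3%. A record whose annotated start is off by a few bases loses the match, so these shares describe the annotation and say nothing of the translation of the mRNA.

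The windows below run from 15 bases before the annotated start through the first 15 transcribed bases, and are those of genes described in the results. Capitals mark the tract of C and T. In Rpl38, Rps10 and Rpl15 it opens at the first transcribed base, in Rpl7a 1 base before it and in Rpl12 at the third transcribed base. Rplp0, Rpl5 and Rps7 have none within 5 bases of the annotated start.
Rpl38 (chr11:114668565-114668594, + strand): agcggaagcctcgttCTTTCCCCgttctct
Rps10 (chr17:27635230-27635259, - strand): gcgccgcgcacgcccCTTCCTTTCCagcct
Rpl15 (chr14:18270972-18271001, - strand): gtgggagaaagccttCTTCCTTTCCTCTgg
Rpl7a (chr2:26910792-26910821, + strand): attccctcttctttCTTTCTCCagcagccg
Rpl12 (chr2:32961697-32961726, + strand): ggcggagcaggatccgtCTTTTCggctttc
Rplp0 (chr5:115559452-115559481, + strand): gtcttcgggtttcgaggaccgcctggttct
Rpl5 (chr5:107900513-107900542, + strand): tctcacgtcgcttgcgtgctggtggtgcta
Rps7 (chr12:28635939-28635968, - strand): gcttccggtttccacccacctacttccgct

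Before any comparison, levels were divided by a size factor per library (the median of ratios to the geometric mean over genes). The results, called scaled TPM, are the values given from here on unless TPM as deposited is named. Over the 76 genes the median of the mean levels was 336 scaled TPM, and 68 genes had a mean of at least 100. The highest was Rpl38 (ENSMUSG00000057322.12; chr11:114668524-114672331, + strand), a small 60S protein, with a mean of 1317 scaled TPM and a range over libraries of 953 to 2082. Rps29 (ENSMUSG00000034892.8; chr12:69157722-69159186, - strand), a zinc-binding 40S protein, followed at 1298. Their ranges overlapped almost completely, so the order of this pair is within the spread. Rpl36 had a mean of 1057 and Rpl41, whose product is among the shortest known proteins, 1038, and these ranges overlapped as well. The main coding transcript of a gene is its most abundant model annotated as protein-coding, and it can hold a small part of the gene's level. Rps20-203, the longest and the lowest in GC content, was at 8.98 to 17.7 scaled TPM in a gene at 79.9 to 306. The main coding transcripts were short, from 312 to 3706 bases with a median of 690.5. Across the 76 genes the mean level and that length had a Spearman correlation of -0.45, given as a description because TPM divides by length and the genes share each library.

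At the other end stood 3 genes whose proteins are needed in every ribosome. Rps2 (chr17:24718116-24721929, + strand), a 40S protein near the mRNA entry site, had a mean of 5.25 scaled TPM with a range of 1.9 to 10.1. The mean of Rpl12 (chr2:32961559-32965345, + strand), a protein of the 60S stalk base, was 19.3, and that of Rpl5 (chr5:107900502-107909005, + strand), which carries 5S ribosomal RNA into the subunit, was 19.4. Each has a near-identical copy elsewhere in the genome that is listed at a much higher level: Rps2-ps10 at a mean of 499 TPM as deposited, Gm10275 (for Rpl12) at 271 and Gm15500 (for Rpl5) at 273. These copies share 71.7%, 49.8% and 75.5% of the 31-base words of the member's main coding transcript. Of the 76 genes 30 have at least 1 such copy with at least 30% shared words and a mean of at least 1 TPM, and in 11 the copies together exceed the member. How reads are split between a gene and its copy is the program's estimate, so the levels of these members are uncertain. A further 2 genes overlap an exon of another gene on the same strand (Rpl13a and Rps10) and 6 on the other strand; strand was not stated to be used.

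**Figure D1:**
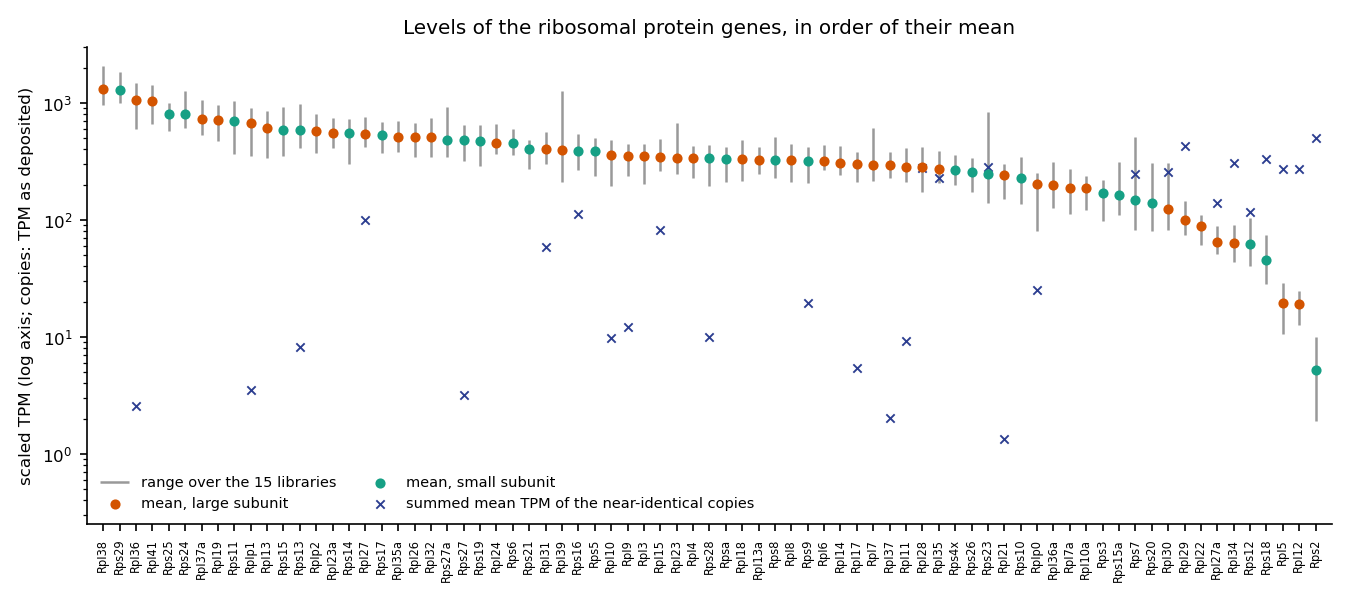
Mean scaled TPM of the ribosomal protein genes reported here (points, orange for the large and green for the small subunit) with its range over 15 libraries (grey lines), on a log axis, in order of the mean. Crosses give the summed mean of near-identical copies as deposited TPM: for Rpl12, Rpl5 and Rps2 at the right end, below 20 scaled TPM themselves, the copies sit between 271 and 500.2.

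The files hold TPM that sum to 1000000 per library, so the depth behind each value is unknown. As a check of the labels, Smn1 was 17.0 ± 5.42 scaled TPM (SD, n = 3) in WT and at most 1.24 in any of the 12 libraries of SMA mice, treated or not. All 10 motor neuron markers fixed for this purpose were present in all 15 libraries, with a summed level of 6301 to 12731 scaled TPM; Chat ranged from 58.9 to 146. Markers of other cells were present too: the summed level was 87.2 to 198 for 12 microglial genes, 947 to 1933 for 9 astrocyte genes, 532 to 4419 for 8 genes of the oligodendrocyte lineage, 22.2 to 103 for 8 vascular genes, 15.8 to 65.2 for 6 interneuron genes and 330 to 3140 for 5 red blood cell genes. In a bulk library, fewer cells of a type and less RNA per cell cannot be told apart. A pair of libraries stood apart, WT 1 and SMA+Pifithrin-alpha 3. Mitochondrial transcripts made up 21.9% and 20.4% of their TPM, against 3.76% to 12.6% in the other 13. The size factors were 0.801 and 0.621, against 0.893 to 1.23. The summed interneuron markers were 65.2 and 63.8 scaled TPM, against 15.8 to 34.6. Most of that sum in both libraries was a single gene, Slc17a6, which ranged from 10.4 to 60.2 over all libraries. Gad1, Gad2, Slc32a1, Slc6a5 and Pax2 reached at most 9.10, 4.62, 2.23, 4.53 and 0.301.

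In the WT 1 library the 76 genes together held 1.95% of the TPM total, in the SMA+Pifithrin-alpha 3 library 1.94%, and in the other 13 from 2.63% to 3.69%. In those 13 they kept step with one another: on the log2(scaled TPM + 1) scale used throughout, the SD over the 76 deviations from each gene's mean was 0.14 to 0.22 per library. In WT 1 it was 0.54 and in SMA+Pifithrin-alpha 3 it was 0.65. A typical member varied over the 15 libraries with an SD of 0.30 (median over members), against 0.48 for all genes tested. After the median of the members was taken off each library, 0.19 remained, and 0.13 over the 13 libraries alone. All genes tested include many at far lower levels than the members. No set of like level was compared, so whether 0.30 is low for that level was not tested.

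**Figure D2:**
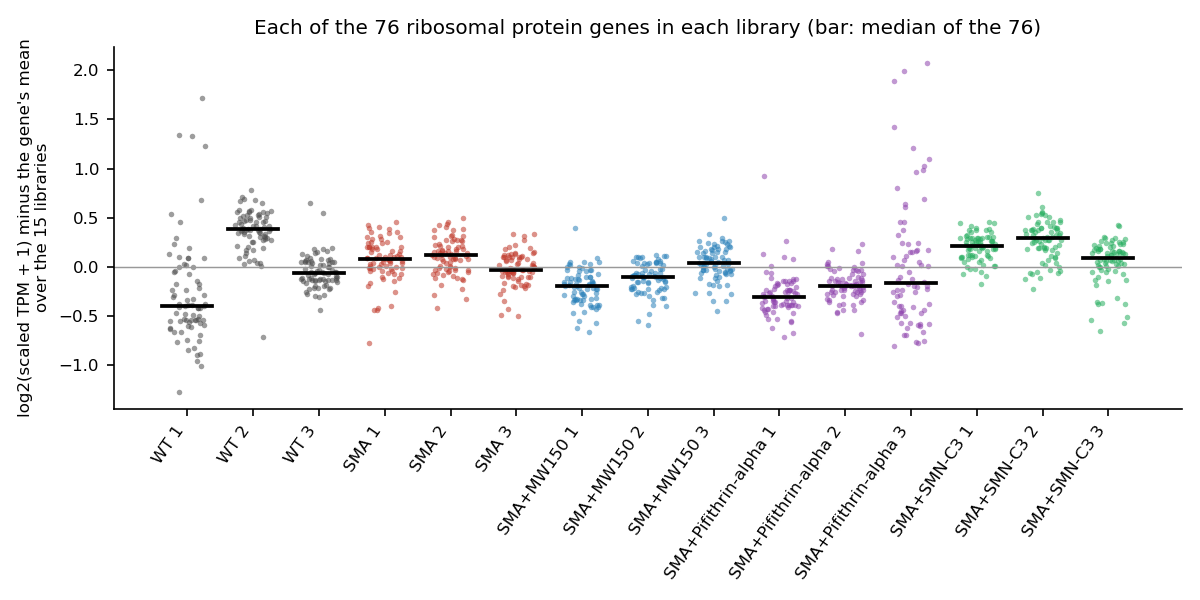
Deviation of log2(scaled TPM + 1) from the gene's own mean over 15 libraries, for each ribosomal protein gene (points) in each library (columns, coloured by group), with the median of the 76 as a black bar. The medians lie between -0.39 (WT 1) and 0.39 (WT 2), and the points fan out in WT 1 and SMA+Pifithrin-alpha 3.

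The members with the largest spread after that step were Rps7, Rps23, Rpl39, Rpl30 and Rps2, with SDs of 0.89, 0.82, 0.81, 0.67 and 0.62. Rps7 (ENSMUSG00000061477.4; chr12:28630854-28635953, - strand), a 40S protein that also binds Mdm2, had 403, 128 and 108 scaled TPM in WT, 89.8, 90.6 and 95.6 in SMA and 82.7, 83 and 95.7 in SMA+MW150. It had 82.9, 119 and 514 in SMA+Pifithrin-alpha and 120.2, 116 and 93.5 in SMA+SMN-C3. Replicate 1 of WT and replicate 3 of SMA+Pifithrin-alpha are thus several-fold above all other libraries. Rps23 (ENSMUSG00000049517.8; chr13:90922958-90924950, + strand), a 40S protein of the decoding centre, showed the same: 535, 217 and 155 in WT and 149.8, 239 and 841 in SMA+Pifithrin-alpha, with 139.8 to 254 in the 9 libraries of the other groups. Both have near-identical copies, as does Rpl30; with the copies added, Rps7 had 604, 448 and 344 in WT and 296, 349 and 754 in SMA+Pifithrin-alpha, still the highest 2 of the 15 libraries. With its copy added, Rps23 had 584, 566 and 401 in WT, 396, 387 and 904 in SMA+Pifithrin-alpha and 581, 596 and 566 in SMA+SMN-C3, so SMA+Pifithrin-alpha 3 still stood out but WT 1 did not. Rpl39 and Rpl30 followed the pattern of Rps7, with 847, 343 and 302 and 267, 114 and 91.6 in WT. Rps2 did not: its values in those libraries, 1.90 and 2.44, were its lowest in WT and in SMA+Pifithrin-alpha, and its mean was only a few TPM. In all, 16 members lay above the range of the other 13 libraries in both of these libraries and 13 lay below it in both. The shares over all genes are not given here, so these counts do not set the members apart from other genes. Over the 76 genes the deviations in the 2 libraries had a Pearson correlation of 0.82 and a Spearman correlation of 0.59, as a description.

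At the level of transcripts the excess of Rps7 and Rps23 sat on short annotated models that begin inside an intron and lack the start codon. That of Rpl39 did not, since Rpl39 has no model lacking the start codon. Its main coding transcript Rpl39-201 was itself at 847 and 1252 scaled TPM in WT 1 and SMA+Pifithrin-alpha 3, against 208 to 458 in the other 13 libraries. The 76 genes have 472 transcripts in the table, of which 132, in 59 genes, begin beyond the start codon of the main coding transcript. These held 10.4% and 11.6% of the members' TPM in WT 1 and SMA+Pifithrin-alpha 3, and 3.60% to 4.68% in the other 13 libraries. For all genes the shares were 10.7% and 9.33%, against 5.43% to 7.57%. The retained-intron model Rps7-205 was listed at 269.8 and 268 TPM as deposited in the 2 libraries and at no more than 33.8 elsewhere, with a median of 1.34. Rps23-202 was at 249.8 and 343, with at most 13.0 elsewhere, and Rpl7-203 at 171 and 159, with at most 1.28. After scaling, which raises both libraries, the main coding transcript Rps7-201 was at 52.4 and 57.4 scaled TPM, below the 66.5 to 107 of the other 13. Rps23-201 was at 87.3 and 99.2, against 97.6 to 142, so only WT 1 lay below. Of the 55 models of this kind that reached 5 TPM in any library, 8 exceeded the range of the 13 in both libraries: Rpl23-204, Rpl30-206, Rpl7-203, Rps12-205, Rps13-206, Rps20-202, Rps23-202 and Rps7-205. Of the 76 main coding transcripts, 25 lay below the range of the 13 in both libraries on scaled TPM. On TPM as deposited, where the low size factors of the 2 libraries are not taken out, 59 did. Above that range in both libraries on scaled TPM were Rpl39-201, Rpl30-201 and Rps15a-201. Rpl30-201 was at 102 and 123, against at most 69.4, and Rps15a-201 at 186 and 306, against at most 184. Such counts over the transcripts of all genes are not given here, so those of the members do not set them apart.

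The intron stretches that these models add to the exons of the main coding transcript are shown for the largest pair, since reads from them tell the short model from the mature mRNA. Both are from GENCODE M21 transcripts on GRCm38 and are given on the gene's strand. The first has a GC content of 22.4% over 76 bases and the second 35.5% over 141 bases. Each ends at the 3′ splice site, directly before an exon of the coding transcript.
Rps7 intron (chr12:28633833-28633908, - strand): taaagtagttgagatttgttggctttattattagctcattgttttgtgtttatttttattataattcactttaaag
Rps23 intron (chr13:90924185-90924325, + strand): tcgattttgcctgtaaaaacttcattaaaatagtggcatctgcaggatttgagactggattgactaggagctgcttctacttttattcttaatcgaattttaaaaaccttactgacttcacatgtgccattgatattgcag

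**Figure D3:**
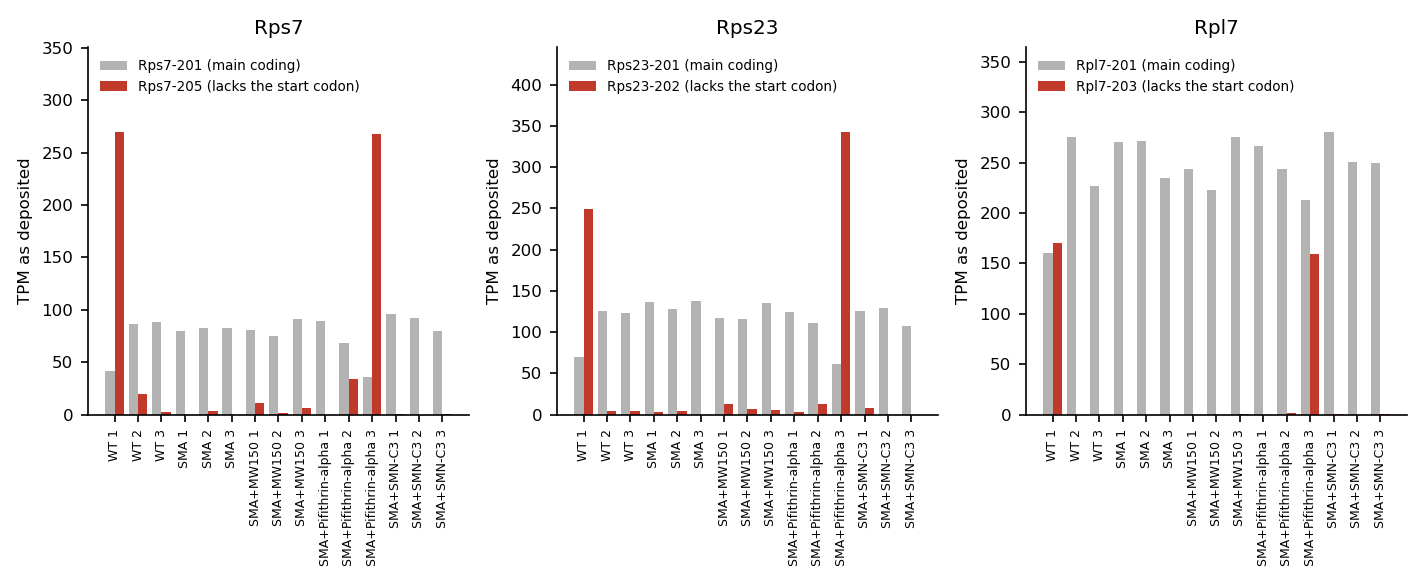
TPM as deposited of the main coding transcript (grey bars) and of a model that lacks the start codon (red bars) for Rps7, Rps23 and Rpl7 in the 15 libraries. The red bars reach 159 to 343 TPM in WT 1 and SMA+Pifithrin-alpha 3 and stay at or below 33.8 in the other libraries, while the grey bars, not scaled by size factor, are lowest in those 2.

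The same libraries ordered the members by base composition. GC content of the main coding transcript ran from 41.3% to 60.8% over the 76 genes, with a median of 51.8%. In WT 1 the 19 genes of lowest GC had a median deviation, after the library median, of 0.49, and the 19 of highest GC one of -0.16. In SMA+Pifithrin-alpha 3 these medians were 0.62 and -0.41. The Spearman correlation of the deviation with GC over the 76 genes was -0.51 and -0.75 in the 2 libraries and between -0.12 and 0.49 in the other 13. With transcript length it was between -0.33 and 0.29 in every library. Each gene's mean includes the 2 libraries, so a trend in them moves the deviations of the other 13 the opposite way, and the contrast is in part built in. These medians and correlations are descriptions over genes of 1 library each. The part of mitochondrial share, interneuron markers, intron models or GC in any comparison below was not tested. The median of each comparison is therefore also given without the 2 libraries. SMA+Pifithrin-alpha 2 stays in those fits. Among the 13 it held the -0.12, the highest mitochondrial share (12.6%) and the highest Rps7-205 (33.8 TPM as deposited). Its size factor (1.01) and summed interneuron markers (27.8 scaled TPM) were not at the edge of the 13.

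**Figure D4:**
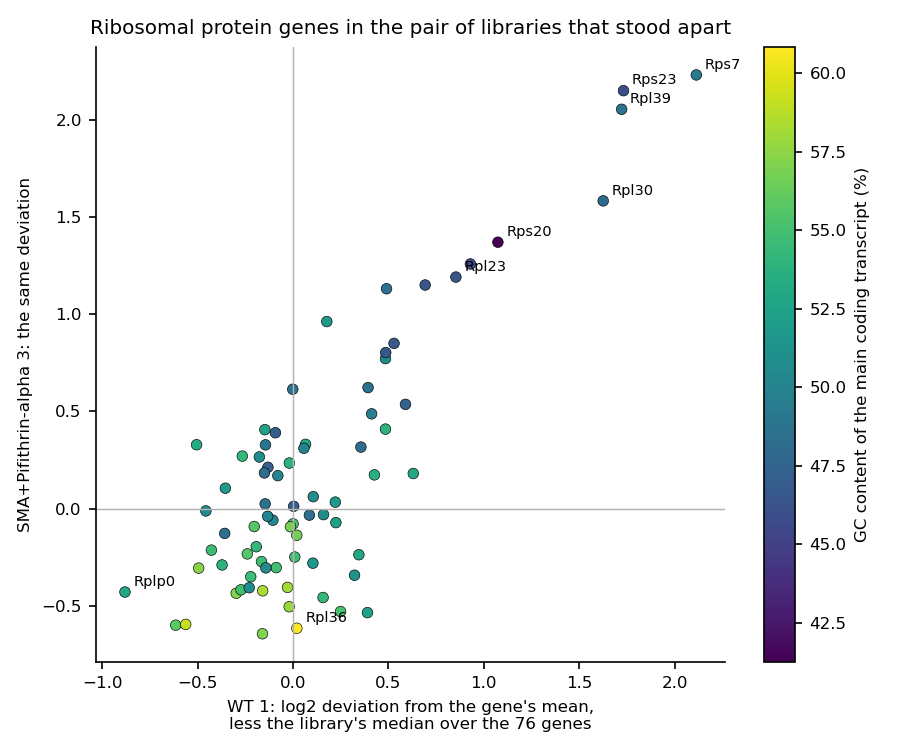
Deviation of each ribosomal protein gene in WT 1 (x axis) and SMA+Pifithrin-alpha 3 (y axis), as log2 from the gene's mean less the library's median over the 76 genes, coloured by GC content of the main coding transcript. Rps7, Rps23, Rpl39 and Rpl30 lie over 1.5 on both axes, and Rpl36, of high GC content, lies low on the y axis.

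The first comparison asks how loss of SMN changed these genes in the motor neurons of vehicle-treated mice. In SMA against WT their levels were centred near 0: the median fitted log2 change was 0.06 over the 76 genes, beside 0.04 over all genes tested, with 47 members higher and 29 lower. The 30 genes of the small subunit had a median of 0.12 and the 46 of the large subunit 0.01. No member was called by limma (Benjamini-Hochberg adjusted p under 0.05 over all 15425 genes), while 0.298% of all genes were. At an unadjusted p under 0.05 there were 4 of 76 (5.26%), fewer than the 13.0% of all genes. Groups that did not overlap were no more frequent than over all genes. Higher in all 3 SMA libraries than in any WT library were 2 members (2.63%, against 8.60% of all genes). Lower were 6 (7.89%), close to the 8.13% of all genes. The fitted changes ran from -0.94 to 0.59, and the 95% interval lay within 1 log2 unit of 0 for 63 of the 76 genes. The sign of the median rested on single WT libraries: it was -0.11 without WT 1 and 0.24 without WT 2, and -0.10 without both WT 1 and SMA+Pifithrin-alpha 3. With TPM as deposited 63 members were higher and 13 lower, with a median of 0.31 beside 0.24 for all genes.

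Among proteins of the 60S core, Rpl3 (ENSMUSG00000060036.14; chr15:80077791-80091868, - strand), which lies at the peptidyl transferase centre, had 204, 359 and 313 scaled TPM in WT and 449, 385 and 372 in SMA. All SMA values were above all WT values, and the WT group was spread by its low replicate 1. Its fitted log2 change was 0.49 (SE 0.22, limma adjusted p = 0.363). Rplp0 (chr5:115559467-115563727, + strand), the base of the acidic stalk that recruits elongation factors, had 80.7, 235 and 219 in WT and 240.4, 236 and 239 in SMA. The groups did not overlap, though WT 2 and SMA 2 nearly coincided and with its copies added they did overlap, and the change of 0.56 (SE 0.32) did not pass (limma adjusted p = 0.427).

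The Mdm2-binding proteins of the 60S subunit were not called either. Rpl5 (ENSMUSG00000058558.12) had 20, 28 and 27.7 scaled TPM in WT and 10.6, 18.5 and 16 in SMA. Every SMA value was below every WT value, and of the 76 genes it had the smallest p of those that were lower. Its log2 change was -0.73 (SE 0.29, limma adjusted p = 0.328). With its copy Gm15500 added in, the same quantity was 437, 294 and 246 and 278, 272 and 239.9 scaled TPM, groups that overlapped, and the change was -0.27 (SE 0.29). Rpl11, its partner in the 5S ribonucleoprotein, had 271, 354 and 289 in WT and 275, 269 and 260.0 in SMA, overlapping groups with a change of -0.17 (SE 0.19, limma adjusted p = 0.686). Rpl23, a 60S protein at the interface of the subunits, had 449, 415 and 296 in WT and 290.3, 301 and 284 in SMA, with overlap and a change of -0.38 (SE 0.29, limma adjusted p = 0.536).

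In the 40S subunit, Rps19, the gene most often mutated in Diamond-Blackfan anaemia, had 286, 559.7 and 395 scaled TPM in WT and 622, 651 and 528 in SMA. The groups overlapped, because WT 2 exceeded SMA 3. Its log2 change was 0.58 (SE 0.24, limma adjusted p = 0.336), the smallest p of the members that were higher. Rps14, the gene lost in the anaemia of the 5q- syndrome, had 300.4, 729 and 459 in WT and 680.0, 714 and 578 in SMA. WT 2 was above every SMA library, and the change of 0.49 (SE 0.28) did not pass (limma adjusted p = 0.432).

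**Figure D5:**
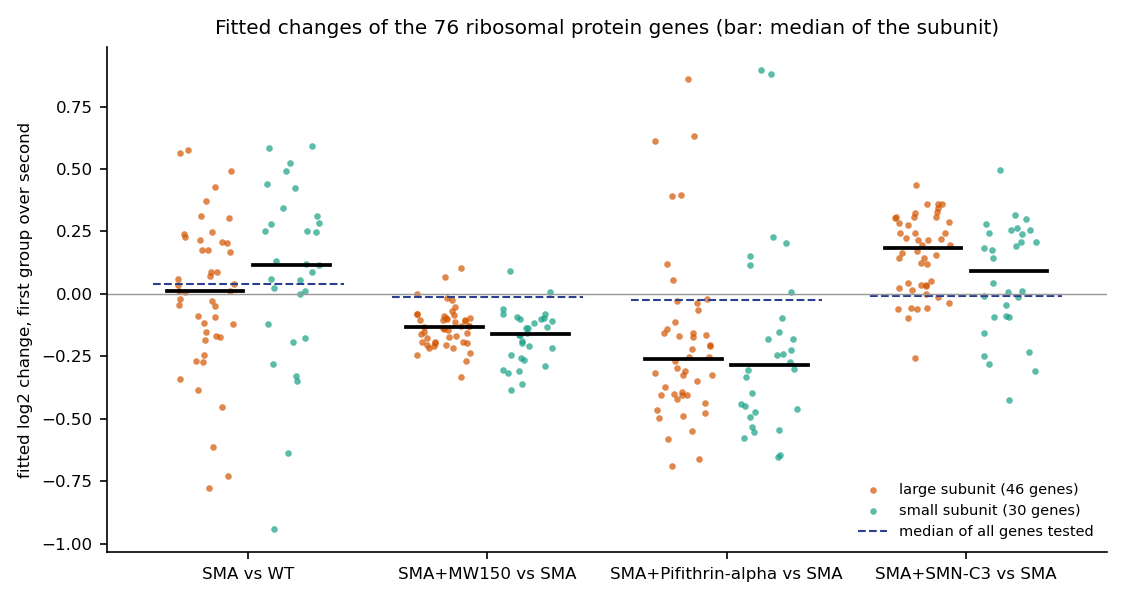
Fitted log2 change of each ribosomal protein gene (points) in SMA against WT and in each treated group against SMA, on the log2(scaled TPM + 1) scale, by subunit, with the subunit's median (black bars) and the median of all 15425 genes tested (dashed). The bars lie below the dashed line in SMA+MW150 and SMA+Pifithrin-alpha and above it in SMA+SMN-C3; under quantile normalization the median of the 76 in SMA+SMN-C3 against SMA was -0.082.

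The next 3 comparisons ask what each compound did in SMA mice, and they share the SMA libraries. In SMA+Pifithrin-alpha against SMA most ribosomal protein genes had lower values: 62 of 76, with a median log2 change of -0.27 beside -0.03 for all genes, and -0.26 and -0.29 for the large and small subunit. No member was called by limma, and 0.00648% of all genes were. At an unadjusted p under 0.05 there were 10 members (13.2%), all lower, close to the 11.2% of all genes in either direction. The groups did not overlap for 37 members (48.7%), all lower in every SMA+Pifithrin-alpha library than in any SMA library, against 9.82% of all genes. No member was higher without overlap, against 6.68%. The members share the shift of each library and are not separate replicates of it: the library medians were -0.30, -0.19 and -0.16 in SMA+Pifithrin-alpha and 0.09, 0.12 and -0.03 in SMA, a gap that also leaves the groups apart. Without WT 1 and SMA+Pifithrin-alpha 3 the median was -0.31, 69 members were lower, and limma called none. An unadjusted p under 0.05 was reached by 20 lower members (26.3%), against 5.00% of all genes in that fit and direction. With the mitochondrial share as a term in the limma fit the median was -0.14. In that fit 1 member (1.32%), lower, had an unadjusted p under 0.05, and the share of all genes is not given here.

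The member with the smallest p was Rps10 (ENSMUSG00000052146.16; chr17:27630418-27636669, - strand), a 40S protein near the mRNA entry that ubiquitination marks on stalled ribosomes. It had 261, 247 and 207 scaled TPM in SMA and 152, 137 and 166 in SMA+Pifithrin-alpha, and 169, 348 and 217 in WT. All treated libraries were below all SMA libraries, with a log2 change of -0.65 (SE 0.24, 95% interval -1.15 to -0.14, limma adjusted p = 0.44). When limma weighted libraries by their quality, Rps10 and Rps27 were called lower here (-0.72 and -0.69, limma adjusted p = 0.033 and 0.037), 2 of 76 members in a fit that called 4.01% of all genes. Rps19 had 419, 428 and 305 in SMA+Pifithrin-alpha, Rps14 456, 495 and 409.6 and Rplp0 189.8, 162 and 130.3, each below all SMA values given above. Rpl5 went the other way, with 22.7, 18.1 and 29.1 scaled TPM, overlapping SMA, and a change of 0.61 (SE 0.29, limma adjusted p = 0.441). With its copy Gm15500 added, Rpl5 had 278, 272 and 239.95 in SMA and 252.6, 259.8 and 571 in SMA+Pifithrin-alpha. Only SMA+Pifithrin-alpha 3 then lay above the SMA libraries. The highest fitted change of any member in this comparison was 0.90.

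In SMA+MW150 against SMA, 71 of 76 members had lower values, by little: the median was -0.14 beside -0.01 for all genes, and the fitted changes ran from -0.38 to 0.10. The limma fit called no member and 0.00648% of all genes. No member had an unadjusted p under 0.05, against 1.83% of all genes. The 95% interval lay within 1 log2 unit of 0 for 71 of the 76. In 13 members (17.1%) all SMA+MW150 libraries were lower, against 5.29% of all genes, and in none higher, against 5.39%. Rpl3, with 317, 287 and 353 scaled TPM, was below all SMA libraries and had the smallest p (-0.33, SE 0.22, limma adjusted p = 1). Rpl5, with 13.3, 19.3 and 15.4, had the smallest p of those that were higher, with a change of 0.10 (SE 0.29, limma adjusted p = 1) and overlapping groups. The median depended on the scaling: it was -0.06 with TPM as deposited, with 65 members lower, and -0.02 after quantile normalization, with 45 lower and 31 higher. Without WT 1 and SMA+Pifithrin-alpha 3 it was -0.14.

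In SMA+SMN-C3 against SMA the values were mostly higher, in 55 of 76 members, with a median of 0.17 beside -0.01 for all genes. It was 0.18 in the large and 0.09 in the small subunit. No member was called by limma and 0.0648% of all genes were. One member had an unadjusted p under 0.05 (1.32%), against 6.75% of all genes. Groups did not overlap for 24 higher members (31.6%; 10.2% of all genes) and 3 lower ones (3.95%; 8.30%), Rpl22, Rps19 and Rps25. This direction was tied to the scaling: with TPM as deposited the median was -0.10 beside -0.23 for all genes and 18 members were higher. After quantile normalization it was -0.082 beside 0.01, with 24 higher. Without WT 1 and SMA+Pifithrin-alpha 3 it was 0.15.

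Rpl11 (ENSMUSG00000059291.15; chr4:136028265-136053428, - strand) had the smallest p, with 359, 409.8 and 327 scaled TPM in SMA+SMN-C3, above the 260.0 to 275 of SMA and overlapping the 271 to 354 of WT. Its log2 change was 0.44 (SE 0.19, 95% interval 0.03 to 0.84, limma adjusted p = 0.708). Rps19, with 489, 509.6 and 452, was below all SMA libraries, with a change of -0.31 (SE 0.24, limma adjusted p = 0.828). The most abundant member, Rpl38, had 1196, 1237 and 1311 scaled TPM in SMA, 1475, 1702 and 1525 in SMA+SMN-C3 and 968, 2082 and 1322 in WT. All SMN-C3 values exceeded the SMA values, and the WT values spanned both groups.

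Set against WT, the treated groups likewise held no called member. The medians were -0.09 in SMA+MW150, -0.17 in SMA+Pifithrin-alpha and 0.20 in SMA+SMN-C3, and these comparisons share the WT libraries. All genes were called by limma at 0.123%, 0.175% and 0.0324% in that order. At an unadjusted p under 0.05 there were 2 members (2.63%), 6 (7.89%) and 2 (2.63%), against 7.47%, 7.22% and 10.5% of all genes. Without WT 1 and SMA+Pifithrin-alpha 3 the medians were -0.25, -0.39 and 0.03, so the SMA+Pifithrin-alpha value more than doubled in size. In that fit limma called no member, and 38 lower members (50.0%) had an unadjusted p under 0.05 in SMA+Pifithrin-alpha, against 4.81% of all genes in that direction. Only WT 2 and WT 3 remained there, with library medians of 0.39 and -0.06, beside SMA+Pifithrin-alpha 1 and 2, with -0.30 and -0.19. The members share these shifts and are not separate replicates. When limma was fitted to the 2 groups alone, with all their libraries, 0 members had an unadjusted p under 0.05. Without WT 2 the medians over the members were 0.12, 0.02 and 0.44. For SMA+MW150, 27 members were higher, but 63 with TPM as deposited (median 0.24) and 52 after quantile normalization (median 0.13). For SMA+SMN-C3, 61 were higher, and 49 after quantile normalization.

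The members with the smallest p in these comparisons were as follows. Rpl15, which sits deep in the 60S subunit, had 349, 489.8 and 389 scaled TPM in WT and 261, 327 and 308 in SMA+MW150, without overlap, and a log2 change of -0.45 (SE 0.20, limma adjusted p = 0.654). With its copies added it had 349, 564 and 408 and 330.5, 408 and 436, groups that overlapped, and a change of -0.15. Rpl7a, a 60S protein near the peptide tunnel, had 182, 271 and 207 in WT and 146, 151 and 112 in SMA+Pifithrin-alpha, also without overlap. Its change was -0.68 (SE 0.22, limma adjusted p = 0.529). Rpl10, the last large-subunit protein to join before translation starts, had 195, 362 and 325 in WT and 411, 484 and 426 in SMA+SMN-C3. Those groups did not overlap, and the change was 0.63 (SE 0.23, limma adjusted p = 0.45). In the opposite directions, against WT, the smallest p belonged to Rpl3 in SMA+Pifithrin-alpha (0.29, limma adjusted p = 0.821) and Rps12 in SMA+SMN-C3 (-0.58, 0.475; -0.0895 with its copies added). With library weights limma called Rps10 and Rps15 lower in SMA+Pifithrin-alpha than in WT (-0.87 and -0.79, limma adjusted p = 0.019 and 0.035), 2 of 76 members in a fit that called 1.43% of all genes.

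Ribosomal proteins and paralogs whose symbols lie outside the rule were followed as well. Of 14 such genes 12 were tested, and limma called none in any of the 7 comparisons, with 1 at an unadjusted p under 0.05 in SMA against WT. Fau, a ubiquitin-like fusion to a 40S protein, had 513, 549 and 539.6 in SMA and 413, 389 and 351 in SMA+Pifithrin-alpha, without overlap (-0.48, SE 0.21, limma adjusted p = 0.44). The 40S protein gene Rps3a1 stayed between 213 and 387 scaled TPM in all libraries. Rpl22l1, the paralog of Rpl22, had 1557, 559 and 456 in WT and 299, 821 and 2106 in SMA+Pifithrin-alpha. Its processed transcript Rpl22l1-209 was listed at 800.0 and 759 TPM as deposited in WT 1 and SMA+Pifithrin-alpha 3, at 198 in SMA+Pifithrin-alpha 2, at 37.3 in SMA+SMN-C3 1 and at 0 in the other 11. Rps27l, a p53 target and paralog of Rps27, had 584, 516 and 412 in WT and 867, 642 and 575 in SMA, overlapping groups (0.45, SE 0.29, limma adjusted p = 0.481). Of Rpl7l1 and Rps4l, which had the smallest p in SMA against WT, the changes were 1.04 and 0.68 (limma adjusted p = 0.345 and 0.394).

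The genes that make and control ribosomes were followed from lists. In SMA against WT, the 22 translation factors and other TOP mRNAs had a median log2 change of -0.06, the 40 genes of ribosomal RNA synthesis and ribosome assembly 0.04, and the 21 genes of the mTORC1 pathway 0.18, beside 0.04 for all genes. None of these genes was called by limma in any of the 7 comparisons; at an unadjusted p under 0.05 in SMA against WT there were 2, 3 and 4 in that order. The smallest p in each list belonged to Eif3l (0.66, limma adjusted p = 0.341) and Nap1l1 (-1.04, 0.353), to Gar1 (0.60, 0.358) and Nhp2 (0.46, 0.371), which modify ribosomal RNA, and to the mTORC1 inhibitors Ddit4 (1.04, 0.156) and Sesn2 (1.34, 0.187). In SMA+SMN-C3 against SMA the TOP list had a median of 0.24, and in SMA+Pifithrin-alpha against SMA -0.03.

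The list for the checkpoint that links free ribosomal proteins to p53 was the exception, in that it held called genes. Of its 12 genes, 2 were called higher in SMA against WT, Cdkn1a and Mdm2. Rpl5, Rpl11 and Rpl23, which are also in it, were not called, and a part of ribosomal proteins in the 2 calls was not tested. Cdkn1a, which makes the cell-cycle brake p21 and is switched on by p53, had 44.8, 51 and 42.1 scaled TPM in WT and 1347, 1009 and 529 in SMA, a log2 change of 4.26 (SE 0.32, limma adjusted p = 2.1e-06). It rose in every treated group against WT as well, by 3.95, 3.27 and 2.89 in SMA+MW150, SMA+Pifithrin-alpha and SMA+SMN-C3 (limma adjusted p = 1.3e-05, 0.00011 and 0.0004). Mdm2 had 10.4, 11 and 14.2 in WT and 47.5, 22.8 and 35.8 in SMA (1.45, SE 0.28, limma adjusted p = 0.0331), and it rose in SMA+Pifithrin-alpha against WT (1.61, limma adjusted p = 0.0255). Leaving out 1 WT or SMA library at a time ended the SMA call of Mdm2 in 4 of 6 fits. The median of the 12 was -0.17, and the list also holds genes with lower values, such as Rpl5.

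Other cell types were read beside these results. Microglial markers had a median log2 change of 0.76 in SMA against WT and -1.12 in SMA+Pifithrin-alpha against SMA, and their summed level was 87.2 to 107 scaled TPM in WT, 176 to 198 in SMA and 96.3 to 133 in SMA+Pifithrin-alpha. C1qc, a complement gene of microglia, was called in SMA against WT (1.63, SE 0.33, limma adjusted p = 0.0486), a call that ended in 5 of 6 fits when a single library was omitted. No other gene of the 7 cell type lists was called by limma in any of the 7 comparisons. The medians in SMA against WT were -0.06 for motor neuron genes, 0.13 for astrocytes, 0.79 for the oligodendrocyte lineage, -0.46 for vascular, 0.55 for interneuron and 0.29 for red blood cell genes. In SMA+Pifithrin-alpha against SMA they were -0.10, -0.40, -1.01, -0.82, -0.50 and -0.89 in the same order. In SMA+SMN-C3 against SMA they were 0.43, -0.59, -0.56, -0.35, -0.54 and -0.94, with -0.71 for microglia. In SMA+MW150 against SMA they were 0.08, -0.16, 0.09, 0.18, 0.06 and -0.49, with -0.41 for microglia, where 11 of 12 genes were lower. The part of other cells in the levels of the ribosomal protein genes was not tested.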

How the data were processed

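Per the submitters' processing notes, reads were quantified with kallisto 0.44.0 on GRCm38.p6 or mm10. The authors deposited TPM (transcripts per 1000000) for genes and for transcripts, with a column for each library; index, trimming and use of strand are not given in the sources used here. Of 118489 transcripts, 98.5% matched GENCODE M21 identifiers on GRCm38, from which positions were taken. TPM were divided by median-of-ratios size factors. The test covered genes that reached 1 TPM in 3 or more libraries, as log2(scaled TPM + 1), with limma 3.58.1 (trend) in R 4.3.3, 1 model with a mean per group over all 15 libraries, two-sided, adjusted by Benjamini-Hochberg over 15425 genes. A fold change on this scale understates that of low genes. The fit was tested on simulated data. Alternatives are other scalings, a pseudocount of 0.1, filters, a replicate block, 2-group fits, library weights, the mitochondrial share as a term and leaving out each library; 3 more were added after seeing the data. Members and lists were chosen with earlier results of these data known. Named genes are Rpl3, Rps14, Rplp0, Rpl5, Rpl11 and Rpl23, the 5 highest and 3 lowest members, the 5 of largest spread, the smallest p per comparison and direction, the related genes outside the rule (all 14 counted, 6 given values), and from other lists the called genes, else, for SMA against WT and the ribosome lists, the 2 of smallest p; other members were named after their values were seen. Results of 2 genes are not reported here by name. Counts and plots used Python 3.11.15 with pandas 2.3.3.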

Additional observations from a re-analysis of the deposited data

How the results depend on the processing

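The count of called ribosomal protein genes was 0 in every comparison under all alternatives except library weights, which gave 2 in SMA+Pifithrin-alpha against SMA and 2 in SMA+Pifithrin-alpha against WT, in fits that called 4.01% and 1.43% of all genes; the cause was not tested. Of 126 medians over the members under the alternatives, 117 moved by less than the spread of library medians within groups (SD 0.19). That SD exceeded most of the main medians in size, so a median could change sign and still be among the 117. In SMA against WT it went from 0.06 to -0.10 without both libraries that stood apart. With TPM as deposited the medians were 0.31 (SMA against WT), -0.53 (SMA+Pifithrin-alpha against SMA), -0.10 (SMA+SMN-C3 against SMA) and 0.24 (SMA+MW150 against WT). The median of all genes moved too, to 0.24, -0.22, -0.23 and 0.31. Quantile normalization gave -0.082 in SMA+SMN-C3 against SMA and 0.13 in SMA+MW150 against WT. Without both libraries that stood apart, SMA+Pifithrin-alpha against WT was -0.39.

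Leaving out 1 library at a time, no member was called; the medians ranged from -0.11 to 0.24 in SMA against WT, -0.22 to -0.10, -0.33 to -0.21 and 0.12 to 0.22 in SMA+MW150, SMA+Pifithrin-alpha and SMA+SMN-C3 against SMA, and -0.26 to 0.12, -0.35 to 0.02 and 0.025 to 0.44 in the same groups against WT. Against WT, single libraries thus set the sign: leaving out WT 1 gave -0.11 for SMA, and leaving out WT 2 gave 0.12 for SMA+MW150 and 0.02 for SMA+Pifithrin-alpha. Of 22 named changes, 2 turned. Rpl11 in SMA against WT was 0.078 with TPM as deposited. Rpl5 in SMA+MW150 against SMA was -0.16 with its copy added, and -0.12 to 0.26 with 1 library left out.

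The replicate numbers of the labels showed no clear pairing of the libraries. The correlation of deviations ran from -0.32 to 0.27 for 30 same-numbered pairs and from -0.22 to 0.30 for 60 other-numbered pairs. Of 15 libraries, 7 were closest to their own number, and these values cannot exclude a pairing. With the replicate block no member was called, and C1qc in SMA against WT had a limma adjusted p of 0.057. The depth of the libraries is unknown, so counting error could not be given.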
